A study of Mus musculus with 18 samples.

Results

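The interleukin-6 family was followed through 10 genes, chosen by name, of the 30583 genes listed in the count table of a mouse myocardial infarction time course. They are the 5 ligand genes Il6, Lif, Osm, Il11 and Clcf1, the 3 receptor genes Osmr, Il6st and Il6ra, and the 2 signalling genes Socs3 and Stat3. All 10 were listed and passed the filter on low counts that left 16311 genes for testing. Il6, Lif, Osm and Il11 had libraries with fewer than 10 counts and passed through the later infarct groups, so their count of calls against sham is given beside that of the other 6.

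Cytokines of this family signal through gp130, a receptor chain encoded by Il6st that is found on most cells. Interleukin-6 and interleukin-11 first bind their own receptor chains, encoded by Il6ra and Il11ra1, and then pair gp130 with itself, whereas leukaemia inhibitory factor, oncostatin M and the cytokine encoded by Clcf1 join gp130 to a partner chain from Lifr or Osmr. JAK kinases bound to gp130 then phosphorylate STAT3, a transcription factor, and among the genes it switches on is Socs3, whose product binds gp130 and blocks the kinases. In the heart the pathway is known for its part in cardiomyocyte survival, in the acute-phase response and in the activation of fibroblasts.

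The samples were 18 hearts of 12-week-old male C57BL/6JR mice, 3 in each of 6 groups, with 1 library a mouse. In 5 groups the left anterior descending coronary artery had been ligated under pentobarbital and hearts were taken 10 min or 1, 6, 24 or 72 h afterwards. The sham group was operated on alike, but the suture was left untied, and was labelled 0 h, so no group controls for the time after surgery. By its title the series asked how expression and DNA methylation change as an infarct progresses; methylation was not analysed here. RNA came from the infarcted region of the left ventricle and was selected for poly(A). The labels give cardiomyocytes as the cell type, but macrophage and monocyte markers summed to 189.7 to 212.2 CPM in sham beside 62080 to 66180 CPM for cardiomyocyte markers, and no step that separates cells is described, so the libraries are read as whole tissue. In such tissue, fewer cells of a type and less RNA per cell cannot be told apart.

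Levels below are TMM-scaled CPM, the counts per 1 M (mega) scaled counts of a library, and log2 fold changes and adjusted p come from edgeR's quasi-likelihood fit of all 18 libraries. A gene was called at an adjusted p under 0.05. Library totals ran from 18.2 to 25.1 M counts. At 6 h replicate 1 and at 24 h replicate 3 stood farther from sham than their group's other libraries, at distances of 80.49 against 56.41 and 63.87, and of 94.23 against 62.06 and 68.16 (log2 CPM of the 500 most variable genes). Of the 10 members, 9 were highest at 6 h in replicate 1 and 10 were highest at 24 h in replicate 3, so results at these times are also given without those libraries.

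On the GRCm38 build (GENCODE M21), Il6 (ENSMUSG00000025746) lies on chromosome 5 at 30013114 to 30019981, Il11 (ENSMUSG00000004371) on chromosome 7 at 4772373 to 4782859 and Socs3 (ENSMUSG00000053113) on chromosome 11 at 117966079 to 117970047. Osm (chromosome 11, 4236420 to 4241026) and Lif (chromosome 11, 4257557 to 4272514) are neighbours on the same strand, 16.5 kb apart. All 10 are protein-coding. Stat3 shares 72 exon bases with Stat5a on the opposite strand, and use of strand in counting is not given in the sources used here, so reads from the shared stretch cannot be told apart.

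The upstream stretches of Il6, Lif, Il11 and Socs3 are shown, because only these members' windows held a match to the motifs searched, which are those of factors known from injury responses. They come from RefSeq windows on GRCm38.p6, which had entries for 8 of the 10 members (9 windows); Osm and Clcf1 had none. Each is written on the gene's own strand, cut to bases outside annotated exons, with motif matches in capitals.
Il6: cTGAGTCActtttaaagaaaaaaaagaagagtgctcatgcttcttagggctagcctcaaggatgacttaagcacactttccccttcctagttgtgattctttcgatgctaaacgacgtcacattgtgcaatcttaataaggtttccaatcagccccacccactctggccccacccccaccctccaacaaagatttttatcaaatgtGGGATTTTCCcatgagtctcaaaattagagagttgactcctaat
Lif: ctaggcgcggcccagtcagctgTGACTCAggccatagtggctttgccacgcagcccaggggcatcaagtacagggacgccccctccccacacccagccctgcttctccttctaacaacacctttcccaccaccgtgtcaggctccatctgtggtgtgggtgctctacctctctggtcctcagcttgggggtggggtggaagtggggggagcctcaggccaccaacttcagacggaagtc
Il11: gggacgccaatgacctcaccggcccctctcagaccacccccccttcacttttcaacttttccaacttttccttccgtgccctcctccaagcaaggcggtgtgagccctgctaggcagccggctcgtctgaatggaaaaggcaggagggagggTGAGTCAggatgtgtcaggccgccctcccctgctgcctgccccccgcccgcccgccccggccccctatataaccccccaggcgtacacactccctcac
Socs3: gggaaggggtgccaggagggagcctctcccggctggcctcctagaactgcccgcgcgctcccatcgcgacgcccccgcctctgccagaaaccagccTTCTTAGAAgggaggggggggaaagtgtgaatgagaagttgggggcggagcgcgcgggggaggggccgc
The Il6 stretch is chr5:30012864-30013113 (plus strand), with an AP-1 match at -249 to -243 and an NF-kB match at -44 to -35 from the start site. The Lif stretch is chr11:4257318-4257556 (plus strand), with the AP-1 match at -228 to -222. The Il11 stretch is chr7:4778142-4778391 (minus strand), upstream of a start site inside the gene, with the AP-1 match at -98 to -92. The Socs3 stretch is chr11:117969452-117969616 (minus strand), also upstream of a start site inside the gene, with the STAT palindrome match TTCTTAGAA at -154 to -146. Over 32851 windows of 250 bases, searched on both strands, 7.02% held the STAT palindrome TTCNNNGAA, 4.46% the AP-1 letters TGACTCA, 0.0639% the NF-kB spelling found upstream of Il6 and 0.14% its commoner spelling. The CRE letters TGACGTCA were in 1.55% of windows and the C/EBP palindrome TTGCGCAAT in 0.0487%, and neither was in a member's window in exactly these letters. Only the letters given here were searched, so looser spellings of any motif were missed. Whether the NF-kB spellings were chosen without knowledge of the Il6 site is not stated, so the low share of the one found there gives its match no weight. No 2 matches overlapped, and a match describes letters only.

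Against sham, 0 of the 10 members passed edgeR's test at 10 min, where 0.0736% of all genes tested did, and 0 had an unadjusted p under 0.05 or passed in DESeq2. At 1 h 0 passed, beside 0.288% of genes called higher; 2 (Il6 and Socs3) had an unadjusted p under 0.05, and DESeq2 called those 2. At 6 h 10 of 10 rose, where 16.3% of genes did. At 24 h 9 of 10 rose beside 23.7% of genes, all but Il6st, and at 72 h 8 of 10 rose beside 34.2%, all but Il6st and Stat3. Of the 6 members with at least 10 counts in every library, 6 rose at 6 h, 5 at 24 h and 4 at 72 h. When only genes with such counts were tested, 6 of 6 were called at 72 h. The share of all such genes called is not given here, and with the main filter 34.2% of genes rose and 32.2% fell at 72 h. No member fell against sham at any time. Over the 6 groups together, 10 of 10 passed the F test, as did 78.4% of genes. Without both outlying libraries the counts stayed 10 at 6 h and 9 at 24 h.

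**Figure D1:**
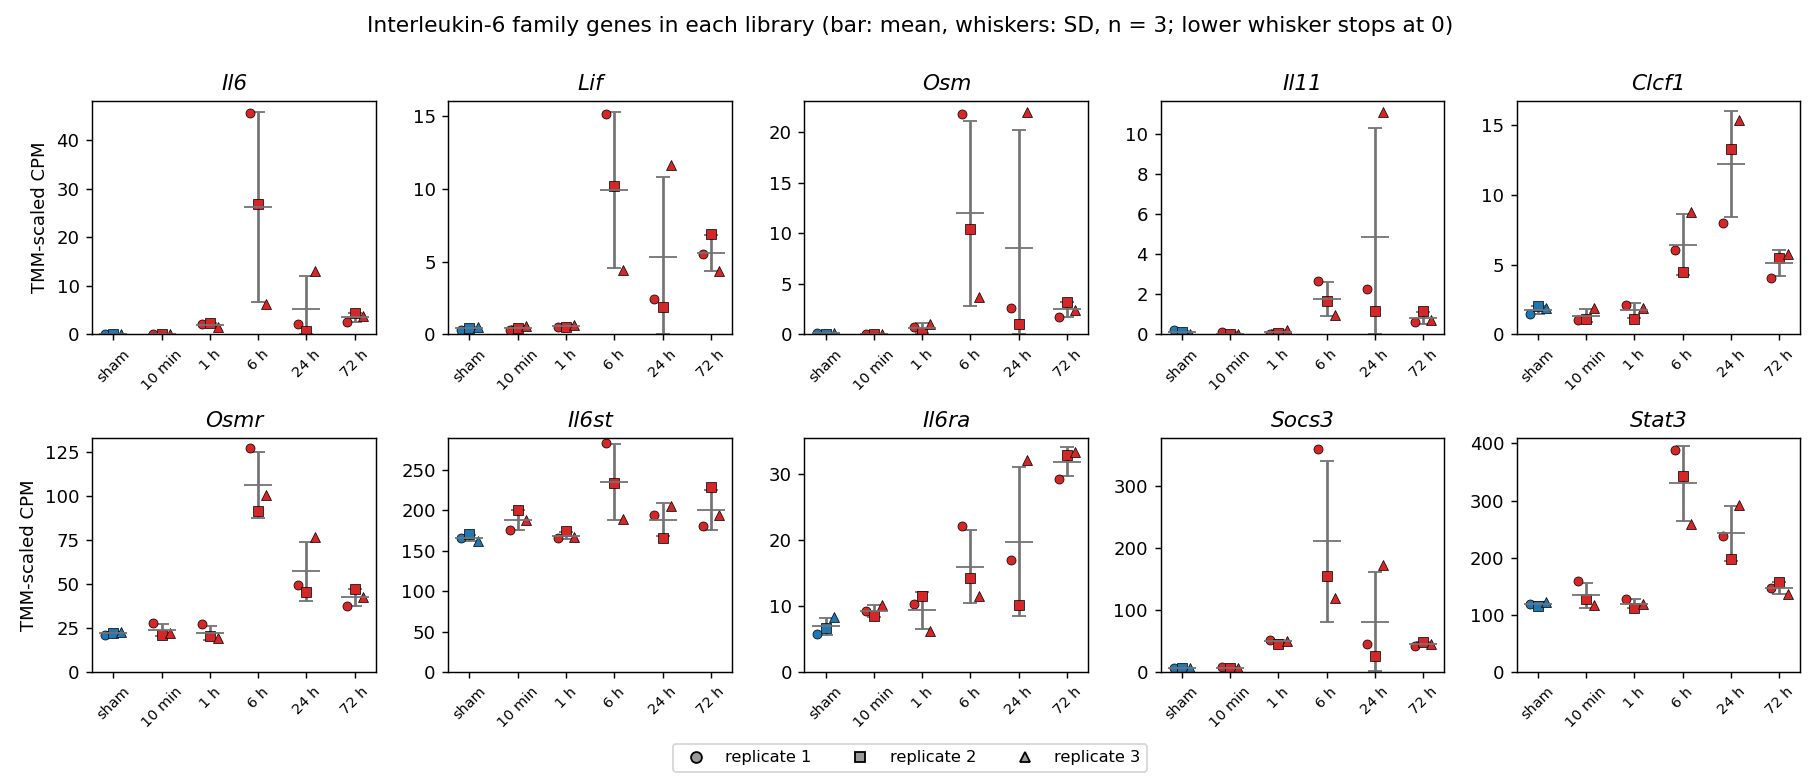
TMM-scaled CPM (linear axes from 0, a scale for each gene) of the 10 members in each of 18 libraries, with the mean and SD of 3 libraries a group; blue points are sham and red points infarct libraries. At 6 h replicate 1 was highest for every member except Clcf1, and at 24 h replicate 3 was highest for all 10.

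Il6, which encodes the founding cytokine of the family, went from near 0 in sham to the highest mean of the 5 ligands per gene length at 6 h, 10.8 ± 8.09 RPKM beside 5.28 ± 4.02 for Osm, a gap within their spread. It was at 0, 0.104 and 0 CPM in the sham libraries (2 counts in all) and at 0, 0 and 0.112 CPM at 10 min (2 counts). It was at 2.17, 2.37 and 1.63 CPM at 1 h, at 45.6, 26.9 and 6.34 CPM at 6 h, at 2.12, 0.778 and 13.1 CPM at 24 h and at 2.52, 4.35 and 3.76 CPM at 72 h. From 1 h on, every library was above every sham library, and the libraries of 6 h and 24 h overlapped each other. Against the 2 sham counts the ratio was 63.6 at 1 h (95% exact counting interval 17.2 to 531.1), 788 at 6 h (218 to 6517), 141 at 24 h (38.8 to 1171) and 109 at 72 h (30.1 to 907). These intervals cover counting error only, since they pool the libraries of a group and leave out the spread between mice. Reads without molecular identifiers are not independent molecules, so even counting error may be understated. The edgeR's adjusted p was 0.617 at 1 h, 0.000561 at 6 h, 0.00399 at 24 h and 0.00415 at 72 h. Without the highest library the mean was 16.6 CPM at 6 h in place of 26.3 ± 19.6 (SD, n = 3), and 1.45 CPM at 24 h in place of 5.33 ± 6.76.

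At 1 h the call on Il6 turned on the method. DESeq2 gave an adjusted p of 0.00668, edgeR on the sham and 1 h libraries alone 3.192e-05, and limma on log2(FPKM + 0.1) 0.14.

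Lif encodes leukaemia inhibitory factor, which signals through gp130 and the Lifr chain. It was at 0.303, 0.467 and 0.489 CPM in sham, at 0.311, 0.42 and 0.558 CPM at 10 min and at 0.531, 0.533 and 0.641 CPM at 1 h. The 6 h libraries held 15.2, 10.2 and 4.42 CPM, the 24 h libraries 2.46, 1.91 and 11.7 CPM and the 72 h libraries 5.52, 6.91 and 4.39 CPM. The libraries of 1 h and later were all above sham, but 1 h by little, while those of 6, 24 and 72 h overlapped one another. The log2 fold change was 0.42 (SE 0.90, edgeR's adjusted p 0.999) at 1 h and 4.54 (SE 0.70, adjusted p 0.000317) at 6 h. It was 3.62 (SE 0.71, adjusted p 0.000961) at 24 h and 3.72 (SE 0.70, adjusted p 0.000252) at 72 h. The 24 h mean of 5.34 ± 5.47 CPM was 2.19 without replicate 3.

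Osm encodes oncostatin M, a product mainly of white blood cells that in mice signals through gp130 and the Osmr chain. Sham libraries held 0.152, 0.0519 and 0.178 CPM (8 counts in all) and 10 min libraries 0.0623, 0.042 and 0.0558 CPM (3 counts). The level was 0.773, 0.118 and 1.05 CPM at 1 h, 21.8, 10.4 and 3.73 CPM at 6 h, 2.63, 1.03 and 22 CPM at 24 h and 1.77, 3.26 and 2.45 CPM at 72 h. At 1 h 1 library lay among the sham libraries, and from 6 h on none did. Against sham its log2 fold change was 6.47 (SE 1.34, edgeR's adjusted p 0.00322) at 6 h, 5.96 (SE 1.36, adjusted p 0.0033) at 24 h and 4.21 (SE 1.44, adjusted p 0.0198) at 72 h. The 72 h call was lost when any 1 sham library was left out (adjusted p 0.0522, 0.0621 and 0.0513 without replicates 1, 2 and 3). Without the highest library the mean was 7.08 CPM at 6 h in place of 12 ± 9.14 and 1.83 CPM at 24 h in place of 8.56 ± 11.7.

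Il11, whose cytokine acts on cells with the Il11ra1 chain and is known for its effects on fibroblasts, was the ligand with the fewest counts over the 18 libraries. It was at 0.202, 0.104 and 0.0444 CPM in sham (7 counts in all), at 0.125, 0 and 0 CPM at 10 min and at 0.0483, 0.0592 and 0.233 CPM at 1 h. It reached 2.68, 1.68 and 0.959 CPM at 6 h, 2.24, 1.17 and 11.1 CPM at 24 h and 0.599, 1.19 and 0.7 CPM at 72 h. The first 3 groups overlapped, and every later library was above them. The model put its log2 fold change against sham at 3.88 (SE 1.01, edgeR's adjusted p 0.00955) at 6 h, 5.31 (SE 0.94, adjusted p 0.000411) at 24 h and 2.80 (SE 1.05, adjusted p 0.0276) at 72 h. The 24 h mean of 4.83 ± 5.44 CPM was 1.71 without replicate 3. The 72 h call was lost without sham replicate 2 (adjusted p 0.0726), sham replicate 3 (0.0963) or 72 h replicate 2 (0.0807), without the filter on low counts (0.0776) and in limma on log2(FPKM + 1) (0.138), which also ended the 6 h call (0.132).

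Clcf1 encodes cardiotrophin-like cytokine factor 1, a cytokine that signals through gp130 and Lifr. It was at 1.47, 2.02 and 1.87 CPM in sham, 1.06, 1.09 and 1.9 CPM at 10 min and 2.13, 1.13 and 1.92 CPM at 1 h. It was at 6.08, 4.5 and 8.79 CPM at 6 h, 7.98, 13.3 and 15.4 CPM at 24 h and 4.07, 5.48 and 5.79 CPM at 72 h. Every library from 6 h on was above every earlier one, the ranges of 6 h and 24 h overlapped, and at 6 h replicate 3, not replicate 1, was the highest. Its log2 fold change against sham was 1.85 (SE 0.31, edgeR's adjusted p 0.000306) at 6 h, 2.77 (SE 0.31, adjusted p 3.731e-06) at 24 h and 1.51 (SE 0.31, adjusted p 0.000257) at 72 h. Clcf1 shares 311 exon bases with AC109138.7 on the same strand, a gene that the table does not list.

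Osmr, the oncostatin M receptor chain, had the largest log2 fold change of the 3 receptor members at 6 h. Its libraries held 21 to 22.8 CPM in sham, 21.2 to 28 at 10 min and 19.2 to 26.9 at 1 h. They held 127.5, 91.4 and 100.4 CPM at 6 h, 49.6, 45.4 and 76.5 at 24 h and 37.4, 47.2 and 42.7 at 72 h. The 6 h libraries were above all others, and those of 24 h and 72 h overlapped each other but none of the earlier ones. Against sham its log2 fold change was 2.28 (SE 0.19, edgeR's adjusted p 9.605e-07) at 6 h, 1.38 (SE 0.19, adjusted p 3.387e-05) at 24 h and 0.96 (SE 0.19, adjusted p 0.000231) at 72 h.

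Il6st, the shared gp130 chain, had the smallest log2 fold change of the 10 against sham at 6, 24 and 72 h. Its mean was 166.1 ± 4.13 CPM in sham, 188.5 ± 12.4 at 10 min and 169 ± 4.83 at 1 h (SD, n = 3). At 6 h it was 283.9, 233.5 and 188.9 CPM, at 24 h 194.9, 166.1 and 205.1 CPM and at 72 h 180.6, 228.6 and 193.8 CPM. It rose at 6 h, by a log2 fold change of 0.50 (SE 0.13, edgeR's adjusted p 0.00612), which was 0.35 (adjusted p 0.054) without 6 h replicate 1. The log2 fold changes of 0.18 at 24 h (SE 0.13, adjusted p 0.247) and 0.27 at 72 h (SE 0.13, adjusted p 0.0606) did not pass. Scaled by library size alone, which put the median of all genes at 0.20 at 24 h and 0.61 at 72 h (0.01 and 0.03 with TMM), they were 0.37 (adjusted p 0.017) and 0.86 (adjusted p 2.801e-06). With TMM kept, the 72 h value was called without the filter on low counts (0.29, adjusted p 0.0453), with at least 10 counts in every library (0.34, adjusted p 0.0227), on only the libraries compared (0.28, adjusted p 0.017) and without 72 h replicate 1 (0.35, adjusted p 0.0339). It was also called with RLE size factors (0.29, adjusted p 0.0492).

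Il6ra, the chain that binds interleukin-6, was the only member whose own mean peaked at 72 h rather than at an earlier time. It was at 5.81, 6.69 and 8.35 CPM in sham, 9.21, 8.44 and 10.2 CPM at 10 min and 10.3, 11.6 and 6.24 CPM at 1 h. It was at 22.2, 14.2 and 11.6 CPM at 6 h, 17, 10.2 and 32.2 CPM at 24 h and 29.4, 33 and 33.4 CPM at 72 h. The 72 h libraries were close together, whereas the 24 h libraries spanned a range from near the 10 min level to near the 72 h level. The model put its log2 fold change against sham at 1.19 (SE 0.36, edgeR's adjusted p 0.0212) at 6 h, 1.49 (SE 0.35, adjusted p 0.00342) at 24 h and 2.19 (SE 0.35, adjusted p 5.755e-05) at 72 h. The 6 h call was lost without sham replicate 1 (adjusted p 0.0808), sham replicate 2 (0.0641) or 6 h replicate 1 (log2 fold change 0.89, adjusted p 0.113), without the filter on low counts (0.0618) and in limma on log2(FPKM + 1) (0.0646).

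Per gene length, as TMM-scaled RPKM, the receptor chains lay in a different order at 6 h than in sham. In sham the mean levels were 15.9 ± 0.256 for Il11ra1, 15 ± 0.372 for Il6st, 4.83 ± 0.408 for Lifr, 1.81 ± 0.0766 for Osmr, 1.16 ± 0.212 for Cntfr, the chain that binds ciliary neurotrophic factor, 0.804 ± 0.149 for Il6ra and 0.719 ± 0.0789 for Il27ra, the interleukin-27 receptor chain. Il6ra and Il27ra did not differ beyond their spread. At 6 h they were 21.2 ± 4.29 for Il6st, 13.9 ± 2.03 for Il11ra1, 8.79 ± 1.55 for Osmr, 4.68 ± 0.771 for Cntfr, 3.85 ± 0.514 for Lifr and 1.85 ± 0.643 for Il6ra. Cntfr and Lifr were within their spread of each other at 6 h. The ratio of Osmr to Lifr, both partner chains of gp130, was 0.375 ± 0.0167 in sham, 0.395 ± 0.0523 at 1 h, 2.35 ± 0.76 at 6 h, 1.66 ± 0.986 at 24 h and 1.46 ± 0.259 at 72 h (n = 3). The 24 h mean was 1.09 without replicate 3. The lowest ratio at 6, 24 or 72 h, 1.07, was above the highest at 10 min, 0.505.

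**Figure D2:**
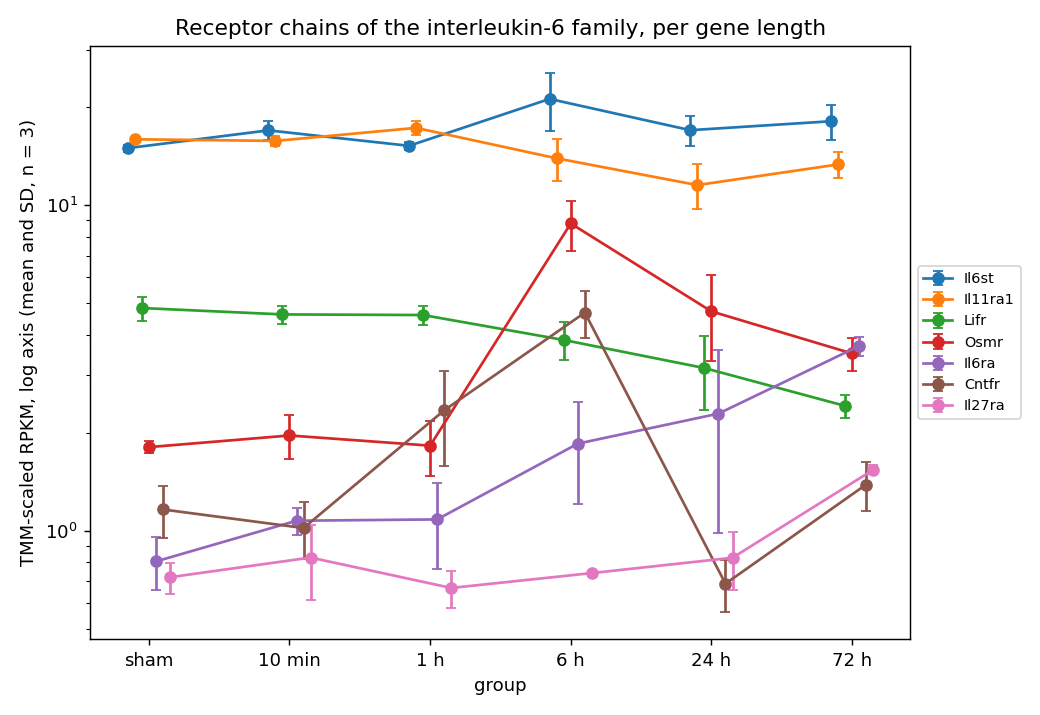
TMM-scaled RPKM (log axis; points are means and bars SD of 3 libraries) of 7 receptor chains of the family in 6 groups, offset sideways for clarity. Osmr rose from 1.81 in sham to 8.79 at 6 h and crossed Lifr, which was 4.83 in sham and 2.42 at 72 h.

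Socs3, the feedback brake on gp130, had the earliest separation from sham of the signalling genes. It was at 6.07, 6.59 and 5.64 CPM in sham and at 7.47, 6.26 and 6.53 CPM at 10 min. At 1 h it was at 51.9, 45.7 and 49.7 CPM, at 6 h at 360.3, 154.8 and 119.4 CPM, at 24 h at 44.6, 25.8 and 173.2 CPM and at 72 h at 41.1, 47.6 and 45.4 CPM. The 1 h libraries were close together and far above all 6 earlier ones, and they overlapped those of 72 h. At 1 h the mean was 8.05 times that of sham, with a log2 fold change of 3.01 (SE 0.63, p 0.000348) that did not pass edgeR's adjustment (adjusted p 0.0962). The adjusted p was 5.102e-05 in DESeq2, 0.00524 in limma on log2(FPKM + 0.1) and 0.0418 in edgeR where every library had to hold 10 counts of a gene. With all 18 libraries the spread of Socs3 at 6 h and 24 h enters the 1 h test, and with the 6 libraries compared alone the adjusted p was 7.215e-11. The log2 fold change was 5.12 (SE 0.67, adjusted p 0.000135) at 6 h, 3.73 (SE 0.64, adjusted p 0.000504) at 24 h and 2.88 (SE 0.62, adjusted p 0.00109) at 72 h. Without the highest library the mean was 137.1 CPM at 6 h in place of 211.5 ± 130.1, and 35.2 CPM at 24 h in place of 81.2 ± 80.2.

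Stat3, the transcription factor that gp130 activates through its kinases, had libraries of 115.6 to 122.1 CPM in sham, 117.2 to 159.1 at 10 min and 111.5 to 127.1 at 1 h. It was at 388, 343.3 and 258.8 CPM at 6 h, 237.1, 197.4 and 292.8 CPM at 24 h and 147.2, 157 and 137 CPM at 72 h. It rose at 6 h (log2 fold change 1.47, SE 0.15, edgeR's adjusted p 3.861e-06) and at 24 h (1.03, SE 0.15, adjusted p 4.808e-05). At 72 h its log2 fold change was 0.31 (SE 0.15, adjusted p 0.0765), although all 3 libraries were above the sham libraries. That value was called with TMM without the filter on low counts (0.33, adjusted p 0.0407), with at least 10 counts in every library (0.37, adjusted p 0.0363) and on only the libraries compared (0.31, adjusted p 0.00273). Scaled by library size alone it was 0.89 (adjusted p 6.03e-06), and in limma 0.84 on log2(FPKM + 1) and 0.89 on log2(FPKM + 0.1). These are transcript levels and say nothing of STAT3 phosphorylation.

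Between consecutive times, 0 members passed from 10 min to 1 h, beside 0.251% of genes called higher; Il6 and Socs3 were at an unadjusted p under 0.05, and DESeq2 called both. From 1 h to 6 h 9 of 10 rose beside 14.5% of genes, all but Il6ra (log2 fold change 0.77, edgeR's adjusted p 0.127). Lif rose by 4.12, Osm by 4.18, Il11 by 3.93, Il6 by 3.67, Osmr by 2.26, Socs3 by 2.11, Clcf1 by 1.89, Stat3 by 1.47 and Il6st by 0.48 on the log2 scale. Without 6 h replicate 1 only 5 were called, and Osm, Il11, Il6st and Socs3 were not. Leaving out 1 h replicate 2 ended the calls on Osm, Il11 and Socs3, 1 h replicate 1 that on Il11 and 1 h replicate 3 that on Socs3.

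From 6 h to 24 h 3 members fell, beside 13.7% of genes, and 1 rose, beside 14.2%. Il6 fell by 2.34 (SE 0.81, edgeR's adjusted p 0.0451), Osmr by 0.90 (SE 0.18, adjusted p 0.00181) and Stat3 by 0.45 (SE 0.15, adjusted p 0.0317) on the log2 scale, and Clcf1 rose by 0.92 (SE 0.28, adjusted p 0.0182). Calls at this step turned on single libraries and on the setting. The Stat3 value was -0.14 by library size (adjusted p 0.4) and -0.14 in both limma fits (adjusted p 0.425 and 0.42), and its call was also lost on only the libraries compared (adjusted p 0.19). The Il6 call was lost in DESeq2 (adjusted p 0.0652), without the filter on low counts (0.0967), by library size (0.0617), with a replicate block (0.0748) and on only the libraries compared (0.291). That last fit also ended the Clcf1 call (0.101). Without 24 h replicate 3, 7 members were called, with Lif (-2.18), Osm (-2.73), Socs3 (-2.59) and Il6st (-0.38) lower as well and Clcf1 no longer called. Without 6 h replicate 1 or replicate 2 only 1 was called, and without 24 h replicate 1 or replicate 2, 2 were. Osmr kept its call in each of these. The Il6 and Stat3 calls were lost without any of 6 h replicates 1 and 2 and 24 h replicates 1 and 2. Clcf1 lost its call without 6 h replicate 1 or 2 or 24 h replicate 2 or 3. Without 6 h replicate 3, Il6st was also lower (-0.46), and without 24 h replicate 2, Il11 was higher (1.91). Without both outlying libraries, 6 members were called.

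From 24 h to 72 h 3 members fell beside 26.1% of genes, and 0 rose beside 24.4%. Il11 fell by 2.51 (SE 0.68, edgeR's adjusted p 0.00587), Clcf1 by 1.25 (SE 0.27, adjusted p 0.000882) and Stat3 by 0.72 (SE 0.15, adjusted p 0.000546). In limma the Stat3 value was -0.30 on log2(FPKM + 1) and -0.31 on log2(FPKM + 0.1), and was not called (adjusted p 0.0609 and 0.0619). The Il11 value was -1.03 (adjusted p 0.0811) without 24 h replicate 3, and then Lif (1.36) and Il6ra (1.23) were called higher. The Il11 call was also lost on only the libraries compared (adjusted p 0.0507). Il6ra and Il6st were called higher by library size (1.10 and 0.49), where the median of all genes was 0.36. Both were also called higher in limma on log2(FPKM + 1) (0.92 and 0.46) and on log2(FPKM + 0.1) (1.20 and 0.48). Without 24 h replicate 2, Osm (-2.29), Osmr (-0.57) and Socs3 (-1.28) were called lower too.

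From 6 h to 72 h 5 members fell beside 31.6% of genes, and 1 rose beside 31.3%. Il6 fell by 2.89, Osm by 2.26, Socs3 by 2.24, Osmr by 1.33 and Stat3 by 1.17 on the log2 scale, and Il6ra rose by 1.00 (SE 0.33, edgeR's adjusted p 0.0166). Lif (-0.82, adjusted p 0.186), Il11 (-1.08, adjusted p 0.197) and Clcf1 (-0.33, adjusted p 0.309) did not pass. The Osm call (adjusted p 0.04) was lost without 6 h replicate 1 or 2 or any 72 h replicate, and by library size (0.132), without the filter on low counts (0.0863) and in both limma fits (0.129 and 0.163), and the Il6ra call without 6 h replicate 2 or 3. Il6st was called lower without 6 h replicate 3 (-0.37) or 72 h replicate 2 (-0.33). The comparisons with sham share the sham libraries, and consecutive comparisons share a group.

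**Figure D3:**
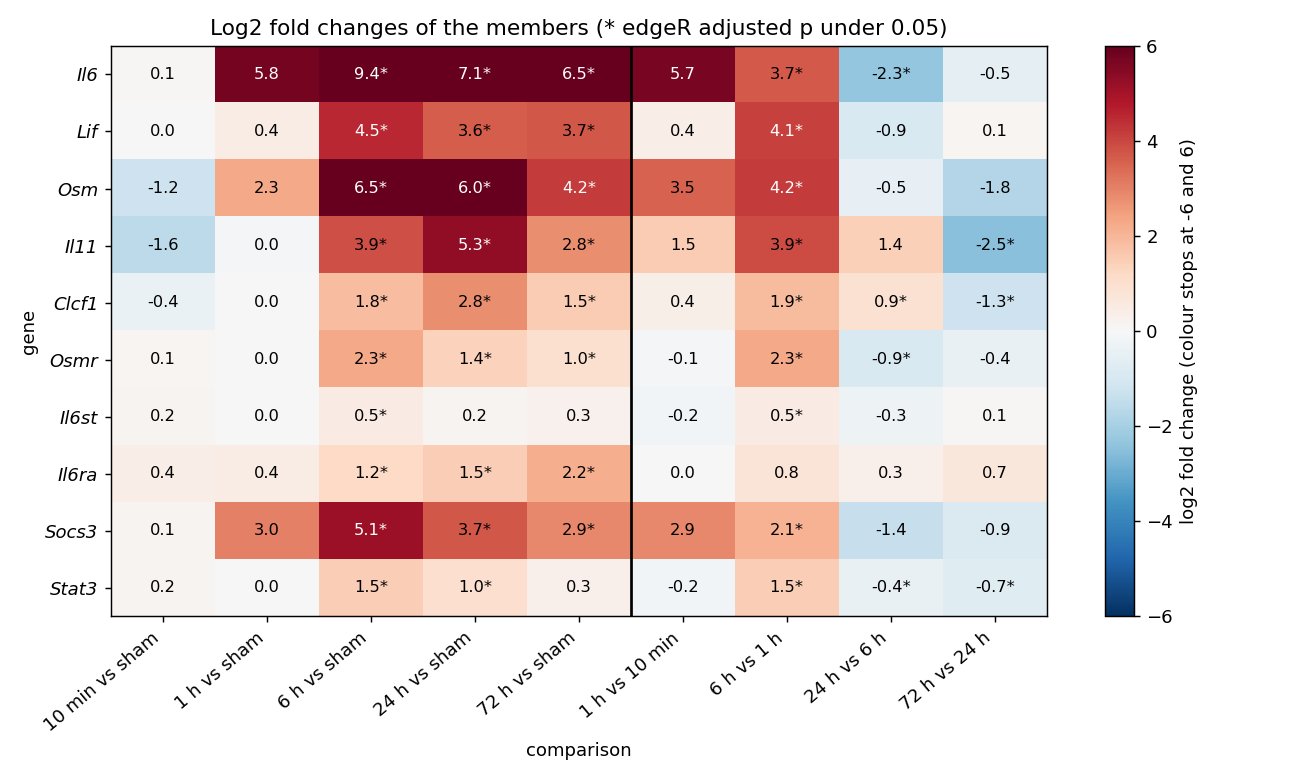
Log2 fold changes of the 10 members (rows) in 5 comparisons with sham and 4 between consecutive times (columns); colour gives the size and a star an edgeR's adjusted p under 0.05. The 6 h column has 10 stars and the 10 min column 0; values of Il6 against sham and of Il6, Osm and Il11 against 10 min rest on reference groups of 2 or 3 counts and depend on the fit's prior count.

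The other genes of ligands of gp130 receptors are described only in part, and no count over them is given. Ebi3, a subunit of interleukin-27, rose at 72 h by 1.81 (edgeR's adjusted p 0.0121) from 0.359 ± 0.0468 CPM in sham. Ctf1, cardiotrophin-1, fell at 72 h by 1.10 (adjusted p 0.000211), from 4.16 ± 0.974 to 1.94 ± 0.152 CPM. Among those that did not pass the filter were Cntf, Ctf2, Il27 and Il31, with group means of 0 to 0.325 CPM.

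Of 5 other receptor genes 4 passed the filter. Cntfr was at 2.83, 2.96 and 3.91 CPM in sham, 7.78, 7.7 and 4.08 CPM at 1 h, 11, 12.7 and 15.3 CPM at 6 h and 2.24, 1.95 and 1.55 CPM at 24 h. It rose at 6 h (log2 fold change 2.0, edgeR's adjusted p 1.57e-05) and was below sham at 24 h (-0.75, adjusted p 0.0241); at 1 h it was called against 10 min (1.19, adjusted p 0.0423) and not against sham (1.01, adjusted p 0.132). Lifr fell at 24 h by 0.61 (adjusted p 0.00251) and at 72 h by 1.00 (adjusted p 7.46e-06). Il11ra1 fell at 24 h by 0.47 (adjusted p 0.00315), and Il27ra rose at 72 h by 1.09 (adjusted p 7.31e-05). Il31ra did not pass the filter.

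Of 14 kinases, STATs and brakes of the pathway, 5 rose and 5 fell at 6 h, 3 rose and 1 fell at 24 h, and 4 rose and 4 fell at 72 h. Of all genes tested, 12.2% fell at 6 h, 20.2% at 24 h and 32.2% at 72 h, beside the 16.3%, 23.7% and 34.2% that rose. The list's shares at 24 h and 72 h were below those of all genes in both directions. Its median log2 fold change was -0.01 at 6 h, 0.05 at 24 h and 0.13 at 72 h, beside -0.01, 0.01 and 0.03 for all genes tested. At 6 h those that rose were Jak2 (1.40), one of the kinases of gp130 signalling, Ptpn2 (1.21), a phosphatase that acts on JAK kinases, Socs1 (1.65) and Socs2 (0.39), relatives of Socs3, and Ptpn11 (0.62), the phosphatase SHP2. Among those that fell were Tyk2 (-0.50), a kinase, Stat5b (-0.32), Pias3 (-0.41), an inhibitor of STAT3, and Gab1 (-0.49), an adaptor. At 72 h Tyk2 (0.58) was above sham and Stat5b was at -0.70 (edgeR's adjusted p 1.62e-05). Jak1, the kinase most used by gp130, passed at no time, with log2 fold changes of 0.30 (adjusted p 0.0912) at 6 h and 0.15 (adjusted p 0.321) at 72 h.

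A list of 26 textbook STAT3 target genes moved largely upwards, and many of its genes are also induced by other routes. Of 25 that passed the filter, 2 rose at 1 h, beside 0.288% of all genes tested, and 22 at 6 h, beside 16.3%. Later 23 rose (24 h), beside 23.7%. At 72 h 17 rose, beside 34.2% of genes, and 3 fell, beside 32.2%. Its median log2 fold change was 0.55, 3.14, 2.03 and 1.18 at these times, beside -0.01, -0.01, 0.01 and 0.03 for all genes tested. Some, such as Saa3 (0.0489 CPM in sham) and Il1rn (0.115 CPM), are near 0 in sham and passed the filter through later groups. The 2 genes called at 1 h were Junb (log2 fold change 3.65, edgeR's adjusted p 0.00127) and Cebpd (1.56, adjusted p 0.00508), both transcription factors. Mt1 and Mt2 encode metallothioneins, which bind metal ions. Mt2 was at 0.344 ± 0.111 CPM in sham, 34.7 ± 5.88 at 6 h, 10.2 ± 5.25 at 24 h and 1.19 ± 0.148 at 72 h. Mt1 rose at 6 h (3.81, adjusted p 4.33e-09) and was below sham at 72 h (-0.76, adjusted p 0.00171). Timp1, an inhibitor of matrix proteases, was at 1.69 ± 0.286 CPM in sham, 48.2 ± 11.4 at 6 h, 173.9 ± 76.3 at 24 h and 193.6 ± 50.5 at 72 h. At 6 h Ccnd1, Vegfa and Birc5 were not called, and at 72 h Mt1, Lrg1 and Vegfa were lower. Without both outlying libraries 22 rose at 6 h and 22 at 24 h.

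**Figure D4:**
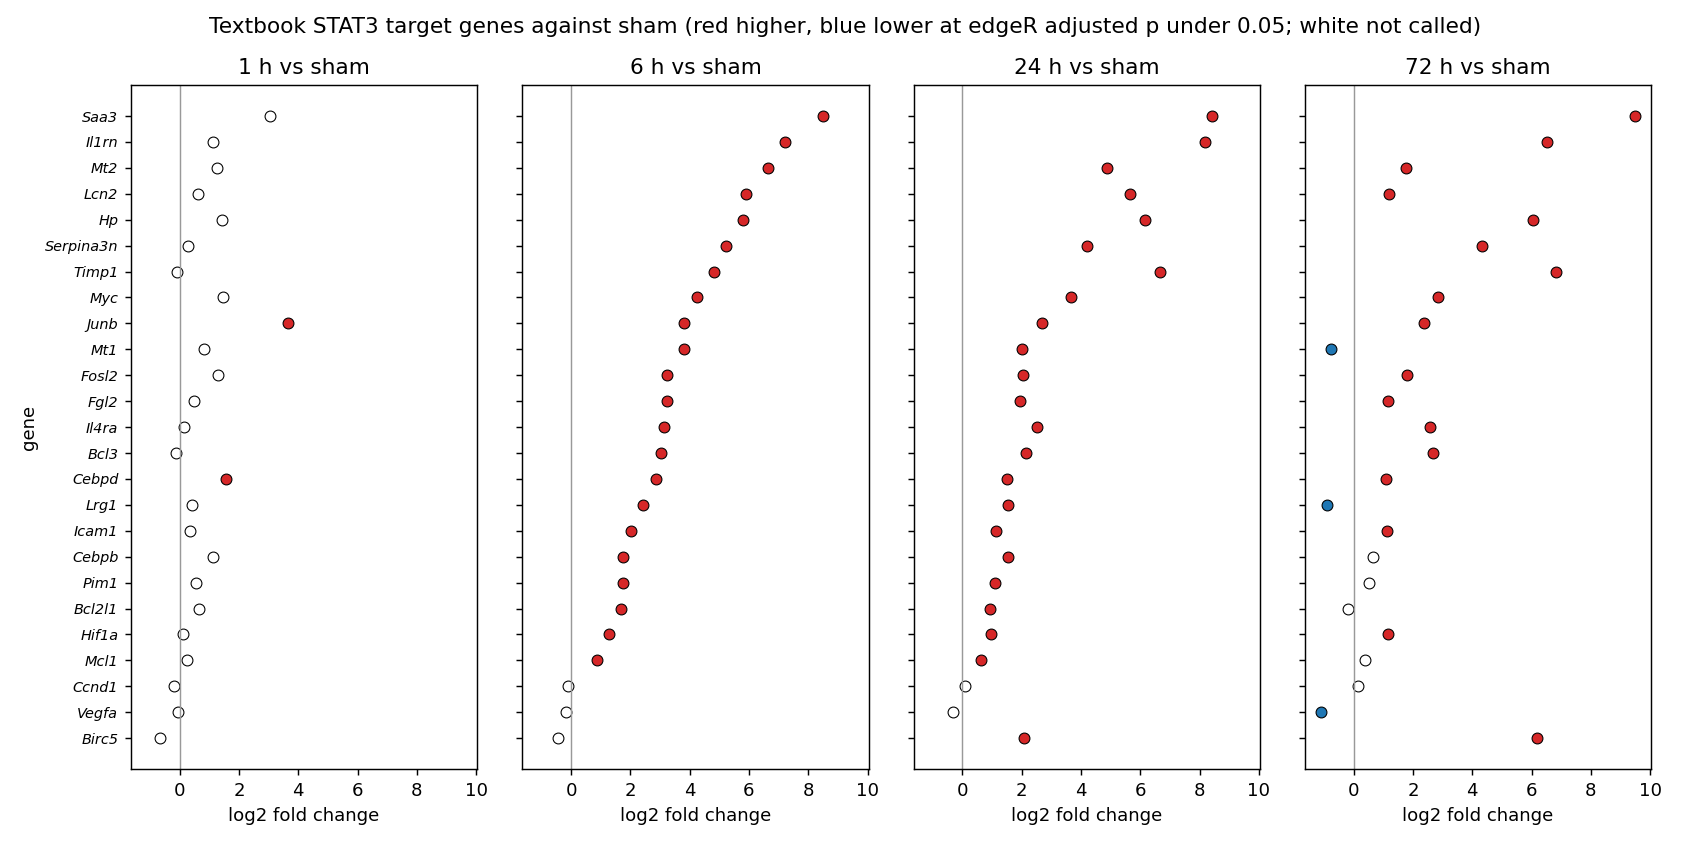
Log2 fold change against sham (horizontal axes, same scale) of 25 textbook STAT3 target genes at 1, 6, 24 and 72 h, ordered by the 6 h value; red points were called higher, blue lower and white neither. At 6 h 22 are red, and at 72 h 17 are red and 3 blue.

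Of 4 genes whose products cut or guard receptor chains at the cell surface, Adam10 (log2 fold change 0.99, edgeR's adjusted p 3.18e-07) and Adam17 (1.02, adjusted p 9.63e-07), proteases that release soluble interleukin-6 receptor, rose at 72 h. Timp3, an inhibitor of Adam17, rose at 6 h (0.83, adjusted p 0.00189), fell at 24 h (-0.51, adjusted p 0.0224) and fell further below sham at 72 h (-1.87, adjusted p 5.29e-08). Rhbdf2, which helps Adam17 to mature, rose at 24 h (0.73, adjusted p 0.027).

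Neutrophil markers rose by 6 h, as the members did, whereas macrophage and monocyte markers kept climbing to 72 h. The part of either in the results was not tested. Of the 8 neutrophil markers, Ly6g was at 0 in sham and passed the filter through infarct groups. The 8 summed to 3.07 to 4.56 CPM in sham, and all 8 rose at 6 h, beside 16.3% of genes, and 7 at 24 h, beside 23.7%. At 6 h their sum was 754.5, 270.4 and 102.2 CPM in replicates 1, 2 and 3, the order of every member except Clcf1 and Osmr. At 24 h it was 173.2, 43 and 746.1 CPM, the order of every member except Clcf1. The distances of these libraries from sham had the same order (80.49, 63.87 and 56.41 at 6 h, and 68.16, 62.06 and 94.23 at 24 h). The order is thus not particular to neutrophil markers. At 72 h the neutrophil sum was 59.2 to 73.5 CPM. The 8 macrophage and monocyte markers summed to 189.7 to 212.2 CPM in sham, 187.2 to 440.8 at 6 h, 534.8 to 927.8 at 24 h and 2797 to 3599 at 72 h, when Il6ra was also highest. The 6 cardiac fibroblast markers summed to 657.3 to 704.3 CPM in sham, 569.3 to 698.8 at 6 h and 7814 to 10090 at 72 h. Cardiomyocyte markers (8 genes) summed to 54730 to 66500 CPM at 6 h and 16520 to 21950 at 72 h. At 1 h, when Socs3 was at 8.05 times its sham mean, neutrophil markers summed to 15.2 to 23.7 CPM, also above the 3.07 to 4.56 CPM of sham. Their median log2 fold change was 2.27 at 1 h, and 0 of the 8 were called. Macrophage markers summed to 194.8 to 213 CPM at 1 h. Of the remaining lists, endothelial markers summed to 1095 to 1217 CPM in sham and 655.3 to 877.2 at 72 h, and smooth muscle and pericyte markers to 794 to 836.6 and 348.3 to 401 CPM. T cell, B cell, mast cell, adipocyte and mesothelial markers summed to at most 43.5 CPM in any library, and red blood cell markers to 203.6 to 1297 CPM.

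**Figure D5:**
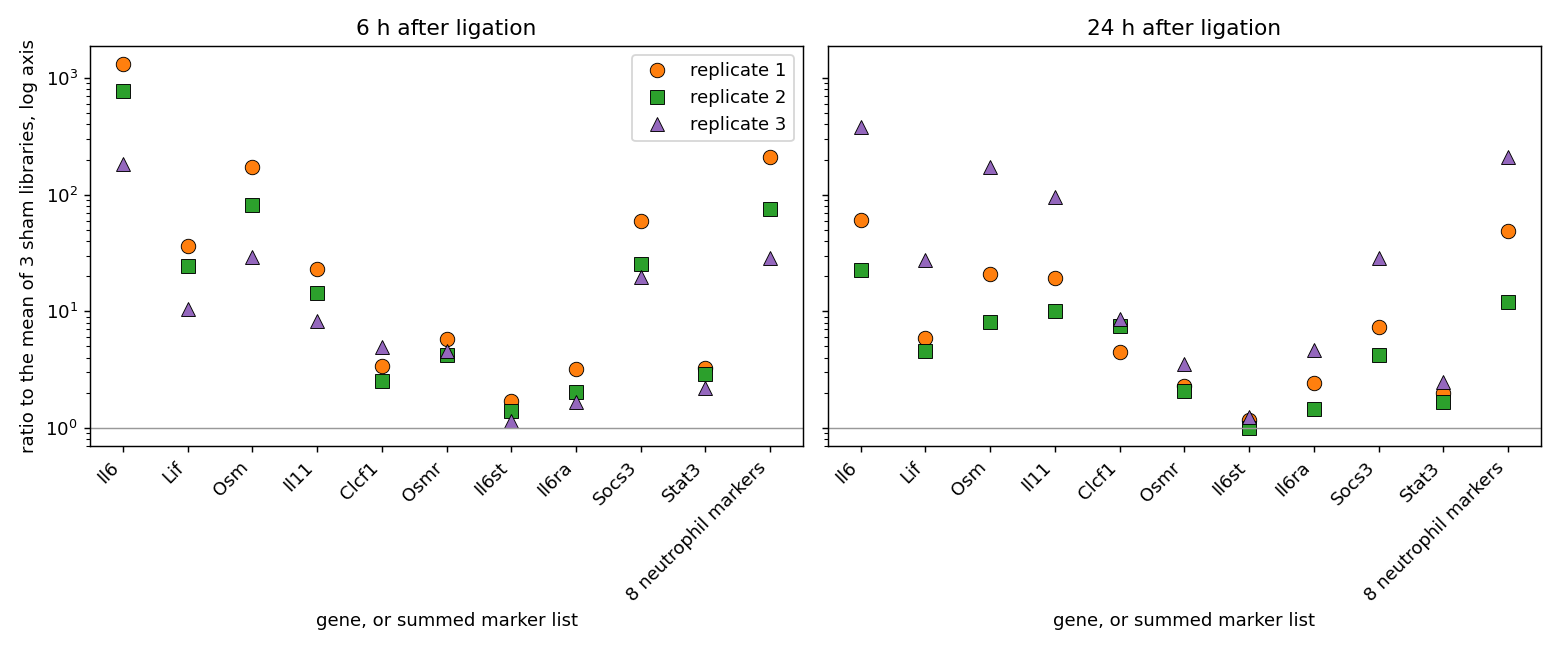
Ratio to the mean of 3 sham libraries (log axis) of each member and of the sum of 8 neutrophil markers in the 3 libraries of 6 h (left) and of 24 h (right); marker shapes are replicates, and the line is at 1. Neutrophil markers were highest in replicate 1 at 6 h (754.5 CPM) and in replicate 3 at 24 h (746.1 CPM); the Il6 ratios rest on 2 sham counts.

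Over the 18 libraries, which differ in time as well as in replicate, the levels of the members varied together to different degrees. On log2 CPM, Pearson's r between Il6 and Socs3 was 0.98, that between Osmr and Stat3 0.95 and that between Lif and Osm 0.94, whereas Clcf1 and Il6st had r of 0.39 and Il6ra and Stat3 0.46. Among 11661 other genes, those most like Il6 were Ptgs2 (r = 0.95), the prostaglandin synthase COX-2, Fosl2 (0.94), an AP-1 factor, and Ptx3 (0.93), a pentraxin. Those most like Socs3 were Ptgs2 (0.97), Cxcl2 (0.95), a neutrophil chemokine, and Fosl2 (0.95). For Osm they were Il1b (0.96), Plaur (0.95) and Cd14 (0.95), which encode a cytokine, the urokinase receptor and a monocyte surface protein. For Osmr they were Rcan1 (0.99), an inhibitor of calcineurin, Grrp1 (0.98) and Fgl2 (0.98). For Il6ra they were Mgat2, Gnai3 and Nfam1 (0.96 each), and 333 genes had r over 0.9 with it, against 14 with Il6. Ptgs2 was at 0.445 CPM in sham, 7.09 at 1 h, 30.7 at 6 h, 15.1 at 24 h and 6.02 at 72 h, while Nfam1 was at 2.75 CPM in sham, 8.96 at 6 h and 29.8 at 72 h. These r describe libraries that share time points and depth, and carry no test.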

How the data were processed

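Poly(A)-selected RNA from 18 hearts was sequenced. Per the submitters' processing notes, the tools were cutadapt 1.18, HISAT2 2.1.0 and featureCounts, with the mm10 build; their settings and any use of strand are not given in the sources used here. The authors deposited a whole-number count per gene and library and, from it, an FPKM value (fragments per kilobase of gene per 1 M listed counts). The deposited FPKM divided into the counts gave whole-number gene lengths for 100% of the 10452 genes that held 50 or more counts throughout. The FPKM columns of 6 h replicates 2 and 3 held each other's counts and were rebuilt from the counts.

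The counts were fitted in R 4.3.3 with edgeR 4.0.16 (filterByExpr, TMM, robust quasi-likelihood, 1 mean per group, two-sided tests). The p-values were adjusted by Benjamini-Hochberg over 16311 genes. The steps were tested on simulated data. RPKM here is TMM-scaled CPM per kilobase of the length recovered from FPKM. DESeq2 1.42.0 and limma 3.58.1, on log2 of FPKM plus 1 or 0.1, were alternatives. Depth was 18.2 to 25.1 M counts a library, and a fold against 3 or fewer pooled counts is given as a ratio with an exact 95% interval. Nothing beyond 1 library a mouse is stated of the replicates, so p-values measure the spread between these samples. Groups come from the labels. No pair of replicate libraries agreed within counting noise.

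The members and gene lists were chosen with earlier results of these data known. All members, the other ligands and receptors, the 3 genes with the smallest F-test p of each other list, and the 3 genes most like 5 members (largest r) were named by rule; other names were chosen after their values were seen. Some results the rule would name are not reported here.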

Additional observations from a re-analysis of the deposited data

How the results depend on the processing

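Of 100 member fold changes, 49 were called, and over the alternatives these calls were kept in 692 of 756 values and lost in 64. At least 10 counts in every library left 6 members to test, of which 1 was called at 1 h, 6 at 6 h, 5 at 24 h, 6 at 72 h, 5 from 1 h to 6 h and 6 in the F test. The 4 members left out cannot count there, while Socs3 was gained at 1 h and Il6st and Stat3 at 72 h. The share of all genes called with that filter is not given here. DESeq2 called 2 members at 1 h against sham and 2 against 10 min, limma on log2(FPKM + 1) 1 and 1, limma on log2(FPKM + 0.1) 1 and 1, and edgeR on only the libraries compared 2 and 2, against 0 and 0; that last fit called 1 from 6 h to 24 h in place of 4. Library size scaling called 5 from 24 h to 72 h in place of 3. Leaving out 1 library gave 5 to 9 calls from 1 h to 6 h, 1 to 7 from 6 h to 24 h and 3 to 6 from 24 h to 72 h; against sham it gave 8 to 10 at 6 h, 9 at 24 h and 6 to 9 at 72 h. Il6st from 6 h to 72 h turned from -0.23 (not called) to 0.47 under library size scaling, 0.46 in limma on log2(FPKM + 1) and 0.48 in limma on log2(FPKM + 0.1), settings without TMM; the cause was not tested. By library size, 40.6% of all calls at 6 h, 75.5% at 24 h and 79.9% at 72 h were higher, against 57.2%, 54% and 51.4% with TMM.

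With a replicate block, 10 members were called at 6 h, 9 at 24 h, 8 at 72 h, 9 from 1 h to 6 h and 3 from 6 h to 24 h, where Il6 was lost (adjusted p 0.0748). Same-numbered libraries deviated together little if at all (r -0.26 to 0.25 over 45 pairs, 4 above 0.1). Their median r was 0.035, beside -0.013 for libraries of other numbers, and 9 of 18 libraries were closest to their own number. Whether the numbers mark pairs was not tested. The alternative without both outlying libraries was chosen after seeing the data. Depth limits Il6, Osm and Il11 in sham and at 10 min, where groups held 2 to 8 counts.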
